A study of Mus musculus with 4 samples.

Results

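The cells described here were phagocytes of mouse prostate tumours, picked by their own transcripts. A cell had to hold at least 2 UMIs of F13a1, Clec10a, Mgl2 and Cd209a together, the genes of coagulation factor XIII subunit A and of 3 C-type lectins. A UMI, or unique molecular identifier, counts 1 captured transcript. The cell also needed at least 3 UMIs of the myeloid genes Lyz2, Csf1r, Cd68 and Ccr2. It had to hold fewer than 5 UMIs of the cycling genes Top2a, Mki67, Birc5, Ube2c and Cenpf and at most 4 UMIs of the keratins Krt8 and Krt18. Barcodes with fewer than 1000 UMIs or 300 genes, or with more than 20% mitochondrial UMIs, were left out. Of 33061 barcodes in 4 libraries, 25509 passed the limits on cells, and 431 of these (1.69%) met the whole rule. They are called gate-positive phagocytes, and the levels of the genes that chose them are given as description only.

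Part of the macrophages of a tissue arise from blood monocytes that enter through CCR2, the receptor for the chemokine CCL2, and part persist from earlier in life. Interleukin-4 and interleukin-13 act through STAT6 and induce in mouse macrophages a programme known as alternative activation. Its known products include the secreted protein RELM alpha (Retnla), the mannose receptor (Mrc1) and the galactose lectins MGL1 (Clec10a) and MGL2 (Mgl2). Clec10a, Mgl2 and Cd209a are also known from type 2 conventional dendritic cells.

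Transcripts of single cells were counted in 4 whole prostate tumours, 1 per mouse, with a droplet method that tags the 3' end of each RNA. The 2 PCSp mice carried floxed Chd1 (Chd1L/L), the gene of a chromatin remodeller, on top of all alleles of the 2 PSp mice. Those shared alleles included PB-Cre, a transgene for the SPOP mutant SpopF133V and the mTmG reporter. The probasin promoter of PB-Cre drives recombination in prostate epithelium, and macrophages are not its target. Every mouse was castrated at 9 months of age and its tumour taken 1 month later, so no tumour of an intact mouse was compared. The tumours had been dissociated with collagenase and trypsin, strained and cleared of red blood cells, and no sort for immune cells is given in the labels. The labels number the mice separately and give no litter, batch or date.

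The libraries held between 66874620 and 90839725 UMIs. After the limits on cells, 7373 and 7551 cells remained in the PCSp mice, against 4886 and 5699 in the PSp mice. Any pair of libraries shared between 11 and 27 cell barcodes, and no gate-positive phagocyte shared its barcode with one of another library. Gate-positive phagocytes had a median of 6018.5 and 5408 UMIs in the PCSp mice, against 9835 and 7094.5 in the PSp mice. Their median percentage of mitochondrially encoded UMIs was 3.16% and 2.73% in the PCSp mice, against 3.42% and 4.54% in the PSp mice. Levels below are given as CPM, the UMIs of a gene per 1000000 UMIs summed over the named cells of a mouse.

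The label of the population, monocyte-derived macrophages with Retnla, Clec10a and Mrc1, was only partly borne out. Its marker genes were all present in the sums. Retnla stood at 4094 and 3691 CPM in the PCSp mice, against 1979 and 2354 CPM in the PSp mice. Mrc1 stood at 1319 and 1186 CPM in the PCSp mice, against 978 and 1034 CPM in the PSp mice. F13a1 stood at 799 and 836 CPM in the PCSp mice, against 553 and 613 CPM in the PSp mice. Mgl2 stood at 650 and 686 CPM in the PCSp mice, against 469 and 494 CPM in the PSp mice. For Retnla and Mrc1 every PCSp value lay above every PSp value. F13a1 and Mgl2 had the same order, which is description only, since the gate chose the cells by these genes. Of all genes tested between genotypes, gate genes left out, 36.1% had both PCSp mice on 1 side of both PSp mice. Among the markers only Mrc1 and Retnla, which the gate did not use, could be tested between genotypes. Clec10a stood at 546 and 399 CPM in the PCSp mice, against 412 and 461 CPM in the PSp mice, with overlapping groups. Ccr2 stood at 520 and 409 CPM in the PCSp mice, against 470 and 312 CPM in the PSp mice, with overlapping groups.

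Single cells did not share the markers in this way. F13a1 was seen in 289 of 431 cells (67.1%), Clec10a in 283 (65.7%), Mgl2 in 277 (64.3%) and Cd209a in 127 (29.5%). All 4 gate genes were seen in 37 cells (8.58%), and 103 cells (23.9%) entered on 1 gate gene alone. At the edge of the gate, 49 cells held exactly 2 UMIs of the 4 genes, while 91 further cells met every other limit with 1 UMI. Complement C1q, made by mature macrophages, was present with at least 3 UMIs of C1qa, C1qb and C1qc in 345 cells (80.0%) and at 0 in 72 cells. The population is therefore named by its gate and not as 1 cell type.

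Gate-positive phagocytes made up 1.84% of kept cells (95% exact Clopper-Pearson interval 1.55 to 2.18) in PCSp mouse 1 and 2.30% (1.98 to 2.67) in PCSp mouse 2. They made up 1.66% (1.32 to 2.06) in PSp mouse 1 and 0.702% (0.502 to 0.955) in PSp mouse 2. The intervals cover counting error only. The means were 2.07% ± 0.325 in PCSp mice and 1.18% ± 0.676 in PSp mice (SD, n = 2 each), and the exact two-sided permutation test over mice gave p = 0.333, the smallest p that 2 against 2 mice allow. PSp mouse 2 alone held the low value, and without it the difference fell to 0.417 percentage points, against 0.895 with it.

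The closest other phagocytes were 946 C1q macrophages, cells with at least 3 UMIs of C1qa, C1qb and C1qc, fewer than 2 gate UMIs and the same other limits. Of both sets together, gate-positive cells made up 31.9% and 37.6% in the PCSp mice, against 32.5% and 16.8% in the PSp mice. PSp mouse 1 lay between the PCSp mice, and the exact two-sided permutation test gave p = 0.667 (n = 2 each). C1q macrophages made up 3.95% and 3.83% of kept cells in the PCSp mice, against 3.44% and 3.47% in the PSp mice.

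**Figure D1:**
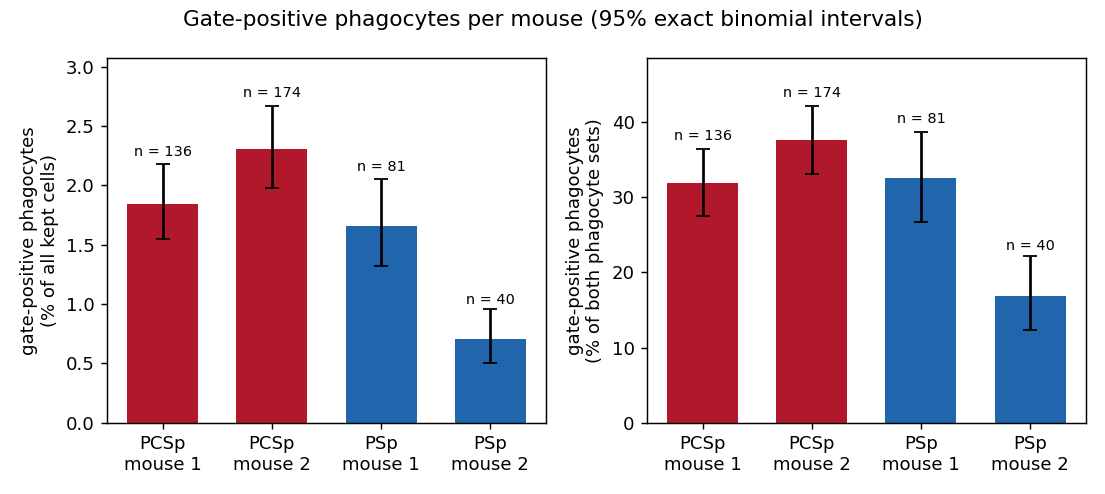
Gate-positive phagocytes as a percentage of all kept cells (left) and of gate-positive phagocytes plus C1q macrophages (right), with bars for the 4 mice, whiskers for 95% exact binomial intervals and n for the number of cells. PSp mouse 2, with 40 cells, is the low bar in both panels, and PSp mouse 1 lies beside the PCSp mice.

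Retnla was concentrated in a minority of the cells. It was at 0 in 99 of 136 and 139 of 174 cells of the PCSp mice, against 63 of 81 and 33 of 40 cells of the PSp mice. That left 334 of 431 cells (77.5%) without a Retnla UMI. At least 10 Retnla UMIs were found in 30 and 28 cells of the PCSp mice, against 12 and 6 cells of the PSp mice. These 76 cells made up 22.1% and 16.1% of the set in the PCSp mice, against 14.8% and 15% in the PSp mice. They held at least 98.8% of the population's Retnla UMIs in each mouse.

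The highest cell decided much of each sum. It held 826 and 1378 Retnla UMIs in the PCSp mice, against 633 and 554 in the PSp mice. This was 21.3% and 35.6% of the Retnla UMIs of the PCSp populations, against 36.7% and 71.4% of those of the PSp populations. Without the highest cell of each mouse the level was 3258 and 2401 CPM in the PCSp mice, against 1277 and 701 CPM in the PSp mice. Both PCSp mice lay above both PSp mice with and without it. On the sums of all cells the log2 fold change was 0.79 ± 0.16 (SE), with an adjusted p of 0.0609 in edgeR and 0.047 in DESeq2. Retnla thus passed the threshold of 0.05 in DESeq2 and not in edgeR, and over 18 settings it passed in 6, with values between 0.44 and 4.17.

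Most of the tumours' Retnla lay in these cells. Gate-positive phagocytes held 77.1% and 88.6% of all Retnla UMIs of kept cells in the PCSp mice, against 93.6% and 64.3% in the PSp mice. Of the 90 kept cells with at least 10 Retnla UMIs, 76 were gate-positive, 6 were C1q macrophages, 2 were epithelial by their keratins and 6 belonged to none of these. With each cell thinned to 1000 UMIs, Retnla was seen in 23.5% and 17.8% of gate-positive cells of the PCSp mice, against 17.3% and 15% in the PSp mice. In neutrophils, a cell type that should lack it, the thinned share was 0.6% and 0.510% in the PCSp mice, against 0.366% and 0% in the PSp mice. The thinned count of 0 in 738 neutrophils of PSp mouse 2 allows up to 0.499% of them to hold a Retnla UMI at that depth (exact 95% bound). The unthinned share was 27.2% and 20.1% of gate-positive cells in the PCSp mice, against 22.2% and 17.5% in the PSp mice. In neutrophils it was 1.20% and 0.680% in the PCSp mice, against 1.65% and 0.136% in the PSp mice.

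**Figure D2:**
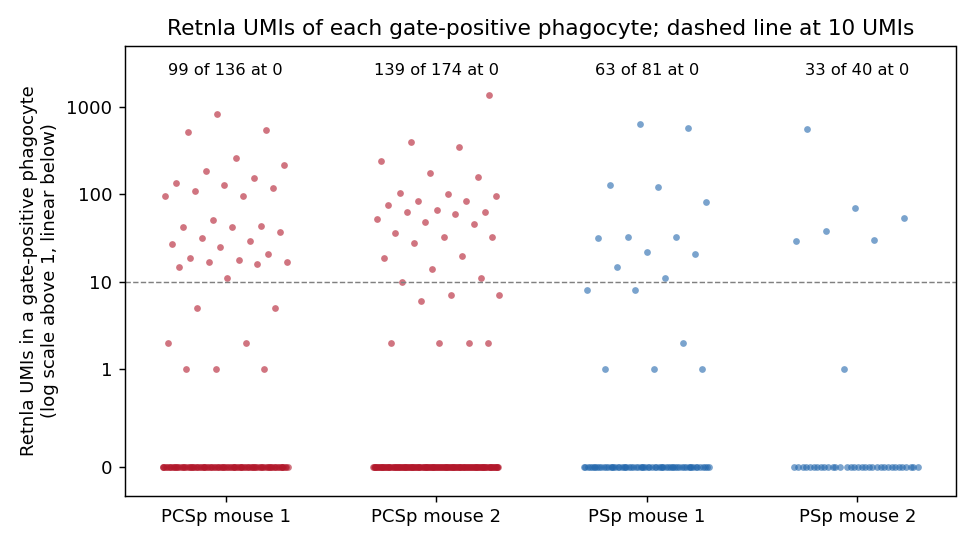
Retnla UMIs in each gate-positive phagocyte (log scale above 1, linear below, dashed line at 10 UMIs), with 1 point per cell and the number of cells at 0 written above each mouse. In all 4 mice most points lie at 0 and a small group lies above 10 UMIs, up to 1378 in PCSp mouse 2.

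The cells with at least 10 Retnla UMIs were heterogeneous too. Of the 76, 67 held at least 3 C1q UMIs, 74 held Mrc1, 44 held Ccr2 and 36 held Fn1, the gene of fibronectin. Beside the other gate-positive cells they had more Fn1, at 1837 against 257 CPM, and more Lyz1, a lysozyme gene, at 760 against 22.4 CPM. Ear2, an eosinophil-associated ribonuclease, stood at 391 against 56.7 CPM. The chemokine gene Ccl6 stood at 3331 against 864 CPM, and Ccl24, which encodes eotaxin-2, at 162 against 29.8 CPM. The other side held Ccl17 at 0 against 372 CPM, Spp1 at 1.93 against 123 CPM and the monocyte gene Ly6c2 at 1.93 against 113 CPM. Fn1, Lyz1, Ear2, Ccl6 and Ccl24 were higher and Ccl17, Spp1 and Ly6c2 lower within each of the 4 mice. These are descriptions, since Retnla, a gene of the same cells, made the split.

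Clustering of the 431 cells gave 8 sub-clusters, which describe the population and were not tested. Sub-cluster 1 (110 cells) was led by Ednrb, Lyve1, Cd209f, Cd209g, Fcna and Folr2. It held 12 of 18 resident macrophage markers at 2 or more times the level of the other gate-positive cells and in at least 10% of its cells, and it is called resident macrophage-like. Lyve1, a hyaluronan receptor, stood there at 445 CPM, Folr2, a folate receptor, at 722 CPM and Cd163, the haemoglobin scavenger receptor, at 393 CPM. Ccl8, a chemokine that in the mouse acts on CCR8, reached 8044 CPM. Retnla was seen in 51.8% of these cells, at 4018 CPM.

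Sub-cluster 3 (76 cells) was led by Vcam1, Bmp2, Ccl7, Cd93 and Ccl12 and held 9 of the 18 resident macrophage markers by the same measure. It shared high Mrc1 with sub-cluster 1, at 2573 against 2749 CPM, and none of its cells had a Retnla UMI. Ccl7 and Ccl12, both monocyte-attracting ligands of CCR2, stood at 3323 and 2008 CPM. Sub-cluster 4 (76 cells) was led by Zmynd15, Pmepa1, Tmem119 and Olfml3. It had the second highest C1qa, at 6543 CPM, and 6 of 16 lipid-associated macrophage markers, among them Trem2 at 408 CPM, and it entered mainly on Mgl2, seen in 86.8% of its cells.

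Sub-cluster 2 (76 cells) was led by Ccl17, Klrd1, H2-Oa and Napsa, and 11 of 14 type 2 dendritic cell markers were raised by that measure, so it is called type 2 dendritic cell-like. Cd209a and Mgl2 had their highest summed level of the larger sub-clusters there, at 614 and 1232 CPM. Ccl17, a ligand of CCR4 on T cells, stood at 1217 CPM in 26.3% of the cells and at most at 4.02 CPM in the other sub-clusters. C1qa was low, at 504 CPM, and F13a1 was seen in 9.21% of the cells. Cd74, the invariant chain of MHC class II, stood at 29117 CPM.

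Sub-cluster 5 (41 cells) was led by Ly6c2, Hp, Plac8, Gpr141, Ms4a4c and Vcan and held 11 of 18 monocyte markers, so it is called monocyte-like. Ccr2 was seen in 97.6% of its cells, Mgl2 in none, and C1qa stood at 181 CPM. Sub-cluster 6 (32 cells) was led by Lyz1, Retnla, Fn1, Cd226 and Areg. All of its cells held Retnla, at 29358 CPM, and all held Ccr2, at 1200 CPM. In no other sub-cluster did both genes pass 1000 CPM. Sub-cluster 7 (16 cells) held 11 of 18 resident macrophage markers by that measure, with none of them among its 10 leading genes. Its median of 1466.5 UMIs was the lowest of the 8, and it was left unnamed. Sub-cluster 8 (4 cells, all of PCSp mouse 2) was led by Sfrp4, Dcn and Clec3b and held all 8 fibroblast markers, with Dcn at 17129 CPM.

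Sub-clusters 1 to 4 were found in every mouse with at least 6 cells. Sub-cluster 1 made up 27.9% and 25.3% of gate-positive cells in the PCSp mice, against 23.5% and 22.5% in the PSp mice. Sub-cluster 2 made up 18.4% of cells in both PCSp mice, against 16.0% and 15% in the PSp mice. Sub-cluster 5 made up 3.68% and 9.20% in the PCSp mice, against 19.8% and 10% in the PSp mice. Sub-cluster 6 made up 8.82% and 8.62% in the PCSp mice, against 2.47% and 7.5% in the PSp mice. For these 4 of the 8 every PCSp value lay on 1 side of every PSp value. The other sub-clusters had no such order. Sub-cluster 3 made up 21.3% and 15.5% in the PCSp mice, against 13.6% and 22.5% in the PSp mice. Sub-cluster 4 made up 11.029% and 20.115%, against 22.2% and 20%. Sub-cluster 7 made up 8.82% and 0.575%, against 2.47% and 2.5%. Sub-cluster 8 was seen in PCSp mouse 2 alone. A full split of the mice by genotype was seen in 36.1% of all genes tested between genotypes, as given above. The PSp values rest on 16 and 4 cells of sub-cluster 5 and on 2 and 3 cells of sub-cluster 6, and genes of the same cells made the clusters, so no test was made.

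**Figure D3:**
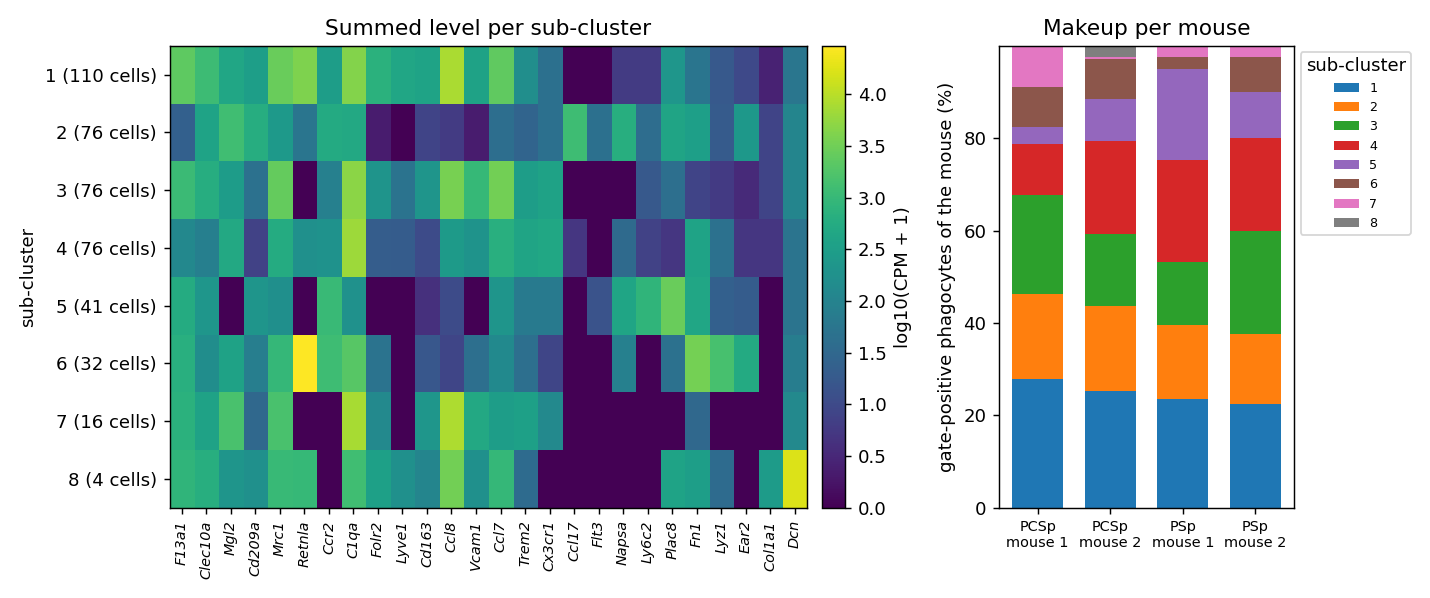
Left, summed level of marker genes in the 8 sub-clusters of gate-positive phagocytes, as log10(CPM + 1) over the cells of all 4 mice; right, the percentage of each mouse's cells in each sub-cluster. Retnla is brightest in sub-cluster 6, Ccl17 is seen in sub-cluster 2, Ly6c2 is brightest in sub-cluster 5, and sub-cluster 8, with fibroblast Dcn, occurs in PCSp mouse 2 alone.

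Set against the C1q macrophages of the same mice, gate-positive phagocytes had more transcripts of scavenger receptors, lectins and monocyte-attracting chemokines and fewer of the lipid-handling genes. UMIs were summed per mouse and population and tested with edgeR with the mouse as a block, over 8780 genes outside both gates. At an adjusted p under 0.05, 2273 genes (25.9%) were called, 1253 higher (14.3%) and 1020 lower (11.6%) in gate-positive phagocytes. Without PCSp mouse 1 the count was 1446. The gates select both sets, so a gene that travels with a gate gene falls on its side by selection. C1q genes and gate genes were left out of the calls for the same reason.

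Mrc1 stood at 1319, 1186, 978 and 1034 CPM in the gate-positive phagocytes of PCSp mice 1 and 2 and PSp mice 1 and 2, against 82.3, 150, 71.6 and 66.4 CPM in C1q macrophages. The sets did not overlap, with a log2 fold change of 3.65 ± 0.16 (SE, adjusted p = 3.6e-08 in edgeR). Cd163 stood at 194, 84.8, 60.8 and 66.7 CPM, against 0.866, 1.07, 0 and 0 CPM in C1q macrophages. Ccl8 stood at 2258, 1648, 2792 and 1392 CPM, against 137, 127, 83.1 and 129 CPM, a log2 fold change of 4.04 ± 0.21 (adjusted p = 9.99e-08 in edgeR). Folr2 stood at 161, 186, 188 and 127 CPM, against 6.93, 13.9, 2.56 and 4.46 CPM. In every mouse these 4 genes were higher in gate-positive phagocytes.

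Retnla differed by 6.01 ± 0.62 on the log2 scale (adjusted p = 2.39e-05 in edgeR), with 3029 ± 1022 CPM in gate-positive phagocytes and 69.7 ± 90.1 CPM in C1q macrophages (SD, n = 4 mice). Ccl17 averaged 330 ± 84.5 CPM in gate-positive phagocytes and 0.458 ± 0.614 CPM in C1q macrophages. Ednrb, the endothelin B receptor gene, averaged 126 ± 49.6 against 3.86 ± 3.98 CPM. C4b, a complement component, averaged 248 ± 61.1 against 20.6 ± 7.33 CPM. The calcium-binding protein gene S100a4 averaged 671 ± 105 against 48.4 ± 39.7 CPM, and Plac8, a monocyte marker, 430 ± 210 against 47.2 ± 62.6 CPM. Ear2, Lyz1, Napsa, Gda and Clec4b1 were the remaining genes among the 15 of largest log2 fold change, between 3.46 and 4.82.

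On the lower side stood genes of lipid handling and tissue remodelling. Spp1, the gene of osteopontin, averaged 104 ± 77 CPM in gate-positive phagocytes and 1919 ± 351 CPM in C1q macrophages, a log2 fold change of -4.44 ± 0.37 (adjusted p = 4.51e-06 in edgeR). Gpnmb, a glycoprotein of lysosome-rich macrophages, averaged 35.5 ± 59.6 against 644 ± 354 CPM. The fatty acid-binding protein genes Fabp4 and Fabp5 fell by 5.16 and 3.03 on the log2 scale. Arg1, which encodes arginase and is itself an alternative activation gene, averaged 11.7 ± 5.05 against 106 ± 73.1 CPM, a log2 fold change of -3.44 ± 0.28 (adjusted p = 3.99e-06 in edgeR). Mfge8, a bridge to dying cells, differed mainly in the PCSp mice, at 24.3 and 70.5 CPM in gate-positive cells against 555 and 560 CPM in C1q macrophages. In the PSp mice Mfge8 stood at 27.5 and 21.2 CPM in gate-positive cells, against 83.7 and 22.9 CPM in C1q macrophages. Syngr1, Igfbp7, Cxcl14, Atp6v0d2, Olfml3, Lhfpl2, Cadm1, Il1a and Pmepa1 completed the 15 lowest, between -3.46 and -2.37.

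**Figure D4:**
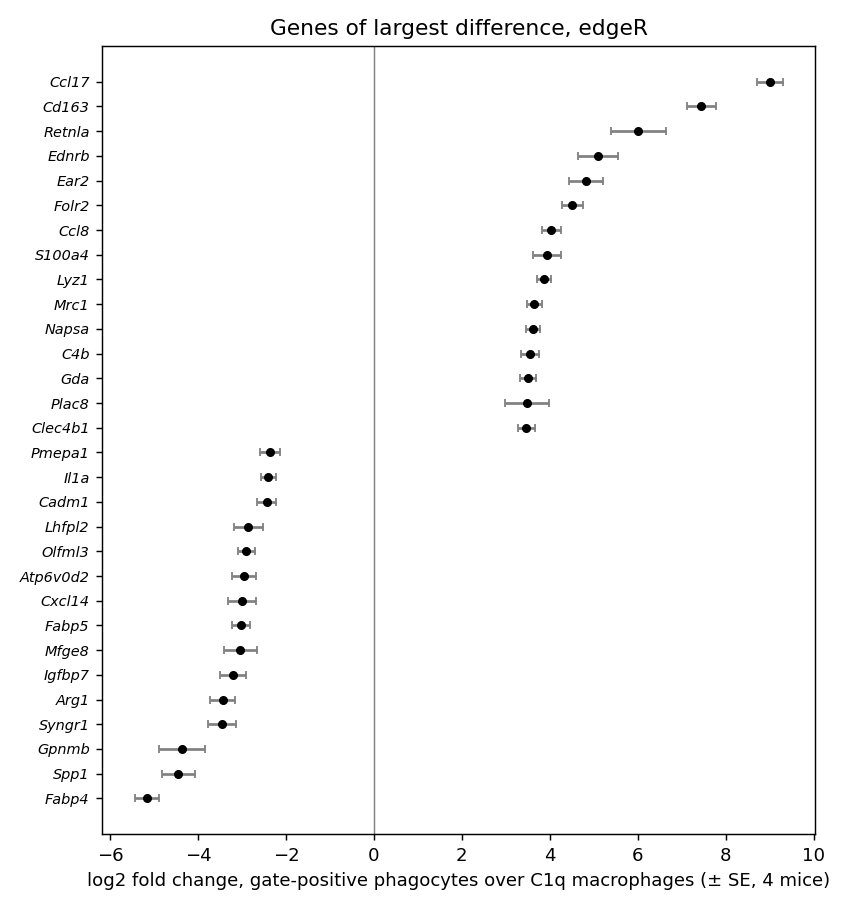
Log2 fold change of gate-positive phagocytes over C1q macrophages with its SE from edgeR (4 mice, mouse as a block) for the 15 genes of largest and the 15 of smallest change among called genes with at least 100 CPM in the higher set. The values run from 9.00 for Ccl17 to -5.16 for Fabp4.

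By group of genes, 12 of 14 resident macrophage markers outside the gates were called higher and none lower, with a median log2 fold change of 2.03, beside a median of -0.02 over all genes tested. The platelet factor gene Pf4, the selenoprotein gene Selenop, the transcription factor gene Maf and the engulfment receptor gene Mertk were among them. Of 16 lipid-associated macrophage markers 13 were called lower and none higher, with a median of -1.76. Of 16 monocyte markers 11 were called higher and 1, Cx3cr1, lower (median 1.60). Of 11 type 2 dendritic cell markers 8 were called higher, among them Flt3 and Napsa, and 1, Itgax, lower (median 2.50). Members of these lists also marked the sub-clusters above, so their counts are not independent of them. The monocyte-like and type 2 dendritic cell-like sub-clusters were low in C1qa, at 181 and 504 CPM. The other set took in only cells with at least 3 C1q UMIs. The part of that limit in the higher counts of these 2 lists was not tested.

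Among effector genes, 12 of 19 alternative activation genes were called higher, among them Ccl22, Ccl24, Il10, Cd209d, Cd209f and Cd209g, and 5 lower, namely Arg1, Tgm2, Itgax, Flt1 and Slc7a2 (median 3.65). Of 17 genes of interleukin-4 and interleukin-13 receptor signalling, 9 were called higher and none lower (median 0.87), with the receptor subunit Il4ra, the kinase Jak1 and the transcription factors Klf4, Egr2, Irf4 and Batf3 among the 9. Klf4 averaged 1280 ± 432 CPM in gate-positive phagocytes and 377 ± 84.2 CPM in C1q macrophages (SD, n = 4 mice). Of 22 chemokines 12 were called higher and 5 lower (median 0.59). The 12 included the CCR2 ligands Ccl2, Ccl7 and Ccl12. The 5 were Ccl3, Ccl4, Ccl5, Cxcl14 and Cxcl16.

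Of 13 genes of MHC class II presentation 10 were called higher, among them H2-Aa, H2-Ab1, H2-Eb1, Cd74 and Ciita, the class II transactivator, and 2, the lysosomal proteases Ctss and Lgmn, lower (median 0.63). Of 18 complement and coagulation genes 10 were called higher and 3 lower (median 0.89), with properdin (Cfp) among the higher. Of 16 efferocytosis genes 3 were called higher, the receptor Mertk and its ligands Gas6 and Pros1, and 8 lower, among them Axl and Mfge8 (median -0.37). Of 18 hypoxia and glycolysis genes 14 were called lower and 1, Hif1a, higher (median -0.78). Of 18 genes of SREBP2 control and cholesterol transport 8 were called lower, among them the efflux genes Abca1, Abcg1 and Apoe, and 4 higher (median -0.39).

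Genes that respond to tissue dissociation moved with these differences. Of 18 such genes 12 were called higher and none lower in gate-positive phagocytes, with a median of 0.62, among them Jund, Egr1, Fosb and Dusp1. Their summed level was 24139 and 19224 CPM in gate-positive phagocytes of the PCSp mice and 18926 and 18581 CPM in those of the PSp mice. In C1q macrophages it was 13860 and 12212 CPM in the PCSp mice and 13589 and 15781 CPM in the PSp mice. The part of dissociation in the differences above, Klf4 and the other early-response genes included, was not tested. Of 11 genes of androgen and glucocorticoid signalling 8 were called higher and 1 lower (median 0.75), and Dusp1 stands in both lists.

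Between genotypes, PCSp gate-positive phagocytes had less of a set of interferon-induced transcripts and more of a few transcripts that other tumour cells express. Of 7123 genes tested with edgeR on sums per mouse, 24 were called (0.337%) at an adjusted p under 0.05, 12 lower and 12 higher in PCSp mice (0.168% each). DESeq2 called 16, 8 in each direction. Fits with 1 mouse left out have a lone mouse in 1 group, assumed to vary like the others. They reuse the remaining mice of the full fit, so they are no independent check of the 24 genes. At an unadjusted p under 0.05 stood 502 genes (7.05%), of which 284 (3.99%) were lower. For 2574 genes (36.1%) both PCSp mice lay on 1 side of both PSp mice.

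Rsad2 encodes viperin, an antiviral enzyme induced by interferon, and lies on chromosome 12 at 26442746 to 26456452 on the minus strand (GRCm38). It stood at 98.3 and 118 CPM in the PCSp mice, against 508 and 488 CPM in the PSp mice. Its log2 fold change was -2.26 ± 0.19 (adjusted p = 0.000111 in edgeR, 1.04e-13 in DESeq2), and it passed in 18 of 18 settings. Rsad2 was seen in 24 (17.6%) and 35 (20.1%) of the PCSp cells, against 28 (34.6%) and 12 (30.0%) of the PSp cells. Cmpk2, its neighbour on chromosome 12 and an interferon-induced nucleotide kinase, stood at 11.6 and 14.3 CPM in the PCSp mice, against 135 and 72.8 CPM in the PSp mice (log2 fold change -3.13 ± 0.33, adjusted p = 0.000556 in edgeR).

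Other interferon-induced genes were called lower too. Ifit1 stood at 22.2 and 42.9 CPM in the PCSp mice, against 111 and 118 CPM in the PSp mice, and Ifit2 at 40.1 and 46.7 CPM in the PCSp mice, against 198 and 100 CPM in the PSp mice. Both encode proteins that bind foreign RNA or translation factors. Isg15, a ubiquitin-like modifier, stood at 128 and 206 CPM in the PCSp mice, against 559 and 309 CPM in the PSp mice (log2 fold change -1.46 ± 0.26, adjusted p = 0.03 in edgeR). Ifit3, Ifit3b, Ifi47, Oasl1 and Ifi213 had log2 fold changes between -2.19 and -1.62, and none of these 5 passed in DESeq2, where their adjusted p lay between 0.157 and 0.469. Of the 5, Ifit3 passed in 6 of 18 settings, Ifit3b in 8 of 16 and Ifi213 in 8 of 18.

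The RefSeq promoter windows of these genes, from 250 bases before to 50 after the start (GRCm38.p6), were searched on both strands for GAAANNGAAA, the core of the interferon-stimulated response element, the sequence through which type I interferons act on their target genes. It was found in 6 of the 10 genes called lower that had a window (60%), Rsad2, Ifit1, Isg15, Ifit3, Ifit3b and Ifi213, and in none of 11 genes called higher. Of the 5708 genes tested that had a window, 257 held it (4.5%), as did 1131 of 32851 windows in all (3.44%). Among the interferon response genes of the fixed list, called or not, 12 of 18 with a window held it (66.7%). No match was found for Cmpk2, Ifit2, Ifi47 and Oasl1, which says only that these letters are not in the window. The windows of Rsad2 (chr12:26456403-26456702, minus strand, 1 match), Isg15 (chr4:156200769-156201068, minus strand, 3 overlapping matches) and Ifit1 (chr19:34640639-34640938, plus strand, 2 matches) are shown 5′ to 3′ on the strand of the gene as examples of how the element is placed, with the matches in capitals.
Rsad2: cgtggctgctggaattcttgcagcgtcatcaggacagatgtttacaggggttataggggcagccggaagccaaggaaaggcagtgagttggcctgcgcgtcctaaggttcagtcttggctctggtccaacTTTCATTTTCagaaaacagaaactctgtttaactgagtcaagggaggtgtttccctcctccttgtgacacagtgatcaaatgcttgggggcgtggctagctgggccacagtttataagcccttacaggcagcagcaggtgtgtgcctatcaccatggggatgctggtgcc
Isg15: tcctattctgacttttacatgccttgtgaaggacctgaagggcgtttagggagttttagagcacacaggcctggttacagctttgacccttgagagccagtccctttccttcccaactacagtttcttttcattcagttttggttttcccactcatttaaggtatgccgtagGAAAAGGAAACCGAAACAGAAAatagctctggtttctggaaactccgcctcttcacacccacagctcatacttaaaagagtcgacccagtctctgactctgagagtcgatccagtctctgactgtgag
Ifit1: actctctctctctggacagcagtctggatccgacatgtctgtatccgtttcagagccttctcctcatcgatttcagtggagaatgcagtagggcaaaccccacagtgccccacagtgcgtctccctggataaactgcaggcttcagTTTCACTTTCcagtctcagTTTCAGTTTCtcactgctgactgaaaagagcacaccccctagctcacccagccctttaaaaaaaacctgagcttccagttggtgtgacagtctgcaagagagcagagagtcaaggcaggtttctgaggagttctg
The matches begin 120 bases before the start of Rsad2, 78, 72 and 66 bases before that of Isg15, and 104 and 85 bases before that of Ifit1. In Rsad2 and Ifit1 the capitals read TTTC first, since the match lies on the other strand.

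The list of interferon response genes lay on 1 side. Of 23 tested interferon response genes all 23 had a log2 fold change below 0, 6 were called lower (Rsad2, Ifit1, Ifit2, Ifit3, Ifit3b and Isg15), and the median was -0.71, beside -0.005 over all genes tested. For 13 of the 23 the groups did not overlap, and 14 had an unadjusted p under 0.05. The regulator Irf7 was not called, at -0.36 ± 0.24 (adjusted p = 0.895 in edgeR). The list summed to 3322 and 3933 CPM in the PCSp mice, against 6248 and 4492 CPM in the PSp mice. In C1q macrophages it summed to 4699 and 4180 CPM in the PCSp mice, against 4989 and 4373 CPM in the PSp mice.

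The interferon list was spread unevenly over cells. The median cell held 15 and 15 UMIs of it in the PCSp mice, against 32 and 22 UMIs in the PSp mice. These counts are not corrected for the lower UMIs per cell in the PCSp mice. Scaled to the UMIs of each cell, the median was 2378.6 and 2852.5 CPM in the PCSp mice. In the PSp mice it was 3213.8 and 2834.6 CPM, so the groups overlapped. The top 10% of cells by interferon UMIs held 37.1% and 41.4% of them in the PCSp mice, against 49.5% and 46.4% in the PSp mice. Rsad2 was highest in sub-cluster 1, at 296 and 177 CPM in the PCSp mice, against 1496 and 1839 CPM in the PSp mice. There 8 of 38 and 15 of 44 PCSp cells held it, against 10 of 19 and 5 of 9 PSp cells. In sub-cluster 5 Rsad2 stood at 86.7 and 96.2 CPM in the PCSp mice, against 912 and 0 CPM in the PSp mice, the last from 4 cells. In sub-clusters 2, 3 and 4 the genotypes overlapped. Sub-cluster 6 had the other order, at 15.2 and 22.8 CPM in the PCSp mice, against 0 and 0 CPM in 2 and 3 PSp cells. The highest cell held 43 and 32 Rsad2 UMIs in the PCSp mice, against 117 and 71 in the PSp mice.

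Neutrophils had more Rsad2 than these cells, at a mean of 3381 CPM, and Isg15 at 2404 CPM. Some of the called genes were lower in other PCSp cells too. Rsad2 stood at 3584 and 2114 CPM in neutrophils of the PCSp mice, against 3732 and 4093 CPM in the PSp mice. In epithelial cells it stood at 204 and 129 CPM, against 314 and 282 CPM. Endothelial cells had the other order, at 204 and 235 CPM, against 130 and 142 CPM. Ifit1 in C1q macrophages stood at 49.8 and 42.8 CPM in the PCSp mice, against 134 and 106 CPM in the PSp mice. Neutrophil markers summed to 268 and 700 CPM in PCSp gate-positive phagocytes, against 205 and 291 CPM in PSp ones. Without the 9 cells that held at least 5 UMIs of S100a8 and S100a9, the log2 fold change of Rsad2 was -1.95 (adjusted p = 0.00438 in edgeR). The median UMIs per cell were lower in the PCSp mice, as given above, and 12 of 13 mitochondrially encoded genes had log2 fold changes below 0 (median -0.45, none called by edgeR or DESeq2, 8 at an unadjusted p under 0.05). Over all mice Isg15 was highest in sub-cluster 5, at 855 CPM, and Rsad2 in sub-cluster 1, at 724 CPM. The shares of both sub-clusters differed between mice, as given above. The part of sub-cluster makeup, of neutrophil RNA, of depth and of cell quality in the result was not tested.

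Cacna1a, a calcium channel gene, was also called lower, at 0 and 0.953 CPM in the PCSp mice, against 28.7 and 45.5 CPM in the PSp mice. It had the same split in C1q macrophages, at 3.03 and 1.60 CPM in the PCSp mice, against 39.6 and 45.7 CPM in the PSp mice.

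Higher in PCSp gate-positive phagocytes were Igfbp7, Igfbp5, Dcn, Gm42031, Reg3b, Cxcl1, Apod, Flrt3, Reg3g, Meg3, G0s2 and Gm26740. Dcn, the matrix protein decorin, stood at 147 and 524 CPM in the PCSp mice, against 33.2 and 42.5 CPM in the PSp mice. Igfbp5 stood at 89.8 and 92.5 CPM in the PCSp mice, against 5.73 and 9.10 CPM in the PSp mice. Both genes were far higher in fibroblasts, with means of 18812 CPM (Dcn) and 1701 CPM (Igfbp5). Apod averaged 9803 CPM in fibroblasts, Igfbp7 4629 CPM in endothelial cells and 3123 CPM in fibroblasts, and Reg3g and Reg3b 4337 and 1605 CPM in epithelial cells. G0s2 averaged 2953 CPM in neutrophils. Gm42031 and Gm26740 were higher in other PCSp cells too. In C1q macrophages Gm42031 stood at 67.97 and 60.923 CPM in the PCSp mice, against 6.3918 and 13.389 CPM in the PSp mice. Gm26740 stood there at 20.348 and 24.049 CPM in the PCSp mice, against 0.63918 and 0.55788 CPM in the PSp mice. In epithelial cells Gm42031 stood at 266.05 and 164.94 CPM in the PCSp mice, against 34.359 and 31.671 CPM in the PSp mice.

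Fibroblast markers summed to 194 and 706 CPM in the PCSp gate-positive phagocytes, against 50.4 and 54.6 CPM in the PSp ones. In C1q macrophages they summed to 736 and 732 CPM in the PCSp mice, against 228 and 308 CPM in the PSp mice. The 8 cells with at least 5 UMIs of Col1a1, Col1a2, Dcn and Lum were all from PCSp mice, 2 and 6 of them. Without these cells, a setting chosen after seeing the data, the markers summed to 88.0 and 66.3 CPM in the PCSp mice, against 50.4 and 54.6 CPM in the PSp mice, and 13 genes were called. Of the 12 higher genes, Cxcl1, Reg3b, Reg3g, Gm42031 and Gm26740 remained, and Dcn, Igfbp5, Igfbp7, Apod, Flrt3 and G0s2 no longer passed, while Meg3 was removed by the filter on low counts. The log2 fold change without these cells was 0.654 for Dcn and 0.405 for Apod. It was 3.06 for Igfbp7 (adjusted p = 0.139 in edgeR), 2.44 for Igfbp5 (adjusted p = 0.138 in edgeR) and 1.56 for Flrt3 (adjusted p = 0.0843 in edgeR). The part of fibroblast RNA in these genes was not tested. Of the 12 lower genes, Rsad2, Cmpk2, Ifit1, Ifit2, Oasl1, Ifi47 and Cacna1a were among those that remained.

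Cxcl1, a chemokine that attracts neutrophils through CXCR2, stood at 109 and 189 CPM in the PCSp mice, against 39.0 and 21.2 CPM in the PSp mice. Its log2 fold change was 2.12 ± 0.32 (adjusted p = 0.0109 in edgeR), and it passed in 16 of 18 settings. In C1q macrophages Cxcl1 stood at 53.7 and 177 CPM in the PCSp mice, against 55.6 and 55.2 CPM in the PSp mice. The epithelial antimicrobial lectin gene Reg3b stood at 49.7 and 105 CPM in the PCSp mice, against 13.8 and 3.03 CPM in the PSp mice. Its relative Reg3g stood at 154 and 135 CPM in the PCSp mice, against 53.9 and 42.5 CPM in the PSp mice. They lay at like levels in C1q macrophages, where Reg3g stood at 130 and 155 CPM in the PCSp mice, against 95.2 and 47.4 CPM in the PSp mice. Epithelial markers summed to 480 and 332 CPM in PCSp gate-positive phagocytes, against 217 and 331 CPM in PSp ones. The part of epithelial RNA in the Reg3b and Reg3g values was not tested.

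**Figure D5:**
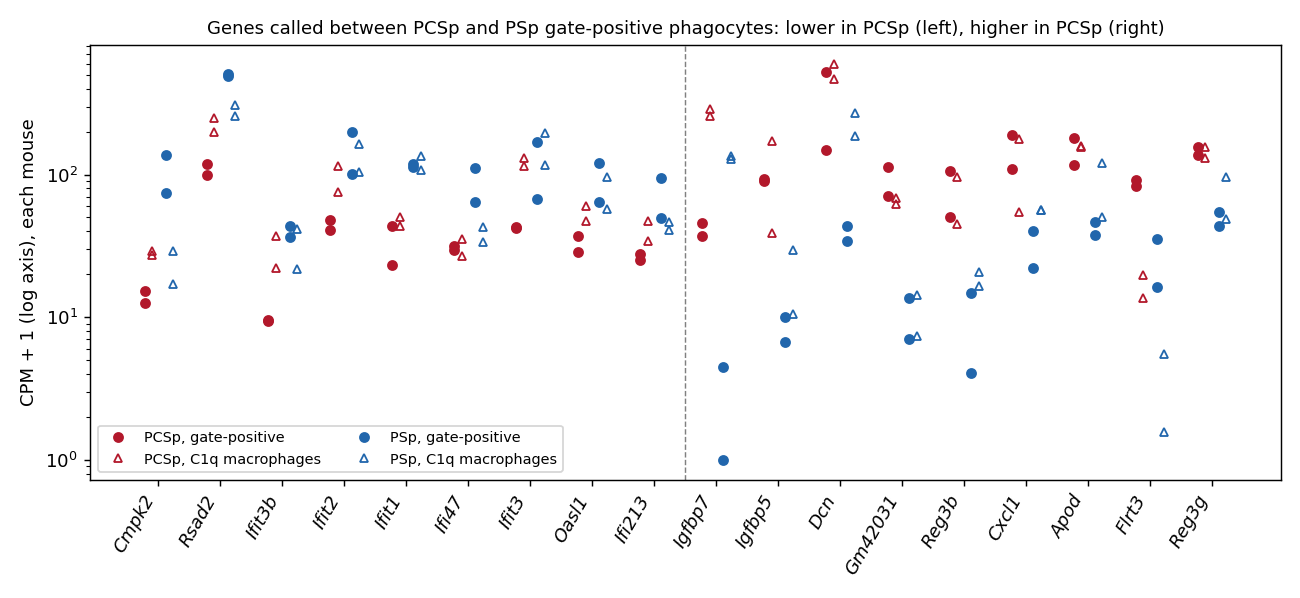
CPM + 1 (log axis) of named genes called between genotypes, in each PCSp (red) and PSp (blue) mouse, in gate-positive phagocytes (filled circles) and C1q macrophages (open triangles). The filled red points lie below the filled blue points left of the dashed line, as for Rsad2, and above them to its right, as for Dcn, where several triangles show the same order. Only called genes with both PCSp mice on 1 side of both PSp mice were drawn. The order of the filled points was therefore set by that choice.

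Few genes of the programmes these cells are known for passed the adjusted threshold between genotypes. Of 17 alternative activation genes tested edgeR called none and DESeq2 called 1, Retnla. Of the 17, 9 had an unadjusted p under 0.05 in edgeR, a larger share than the 7.05% of all genes tested. Of their log2 fold changes 8 were above and 9 below 0, with a median of -0.23. In 5 further lists neither tool called a gene. Of 15 genes of interleukin-4 and interleukin-13 signalling 1 had an unadjusted p under 0.05 (median 0.02), as had 3 of 17 resident macrophage markers (median 0.04) and 5 of 13 monocyte markers (median -0.23). The same measure gave 2 of 11 type 2 dendritic cell markers (median -0.05) and 1 of 13 MHC class II genes (median -0.12). Of 20 chemokines only Cxcl1 was called. Of 9 genes of cholesterol synthesis none was called by either tool and 1 had an unadjusted p under 0.05 (median -0.06). Klf4 stood at 1795 and 1446 CPM in the PCSp mice, against 809 and 1068 CPM in the PSp mice, without overlap (log2 fold change 0.74 ± 0.19, adjusted p = 0.17 in edgeR). Mrc1 differed by 0.26 ± 0.16 and Ccl8 by -0.15 ± 0.25 (adjusted p = 0.866 and 0.975 in edgeR).

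The targeted genes were not called. Chd1 stood at 75.0 and 81.0 CPM in the PCSp mice, against 75.7 and 60.7 CPM in the PSp mice. Its log2 fold change was 0.10 ± 0.23, with 0.03 ± 0.23 for Spop (adjusted p of 0.986 or more in edgeR). A 3' count cannot tell a recombined Chd1 transcript from an intact one unless the deletion lowers its level, so these values do not check the allele.

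Whether the genotypes differed more in gate-positive phagocytes than in C1q macrophages was tested as an interaction. Of 8780 genes 7 were called (0.0797%), 1 with a higher (0.0114%) and 6 with a lower (0.0683%) PCSp effect in gate-positive phagocytes, and DESeq2 called 5. For Rsad2 the difference of the effects was -1.91 ± 0.20 on the log2 scale (adjusted p = 0.00135 in edgeR). Rsad2 in C1q macrophages stood at 197 and 250 CPM in the PCSp mice, against 255 and 304 CPM in the PSp mice. Cmpk2 in C1q macrophages stood at 26.4 and 28.3 CPM in the PCSp mice, against 16.0 and 27.9 CPM in the PSp mice, and its interaction was -3.40 ± 0.49 (adjusted p = 0.015 in edgeR). Isg15 was not called (-1.18 ± 0.24, adjusted p = 0.123 in edgeR). Without PSp mouse 1 no gene passed the interaction test of edgeR, against 51 without PCSp mouse 1, 88 without PCSp mouse 2 and 22 without PSp mouse 2.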

How the data were processed

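UMI counts per gene and cell barcode were the deposited values, made by the authors with Cell Ranger 6.1.2 on mm10 per the submitters' processing notes, with no normalization. Counts are whole numbers of UMIs from 10x Genomics 3' libraries of 4 mice, 2 per genotype. The cell limits and the gate given in the report were applied to them. The gate, the gene lists and the comparisons were chosen with earlier results of these data known, so no list is independent evidence.

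UMIs were summed per mouse and population, since cells are not replicates, and the sums went into edgeR's quasi-likelihood test (version 4.0.16, limma 3.58.1, R 4.3.3, TMM, filterByExpr). Benjamini-Hochberg adjustment ran over all genes tested at a threshold of 0.05, and gate genes were then left out. DESeq2 1.42.0 was the alternative tool. The genotype fit had 2 residual degrees of freedom and a biological coefficient of variation of 14.6%. Its p-values rest on the spread between 2 mice per group, moderated by that of the other genes (11.5 prior degrees of freedom). The fit between populations, with the mouse as a block, had 3 residual and 8.97 prior degrees of freedom. The count tests were checked on simulated data. Levels are CPM, computed here from the counts.

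Shares were compared with the exact permutation test over mice. Doublet scores came from Scrublet (scanpy 1.11.5), and the 22 gate-positive cells among the highest-scoring 0.8% per 1000 barcodes were left out as an alternative. The 431 cells were clustered on 1500 variable genes, 20 principal components and 15 nearest neighbours with Leiden (igraph 0.11.9, resolution 0.8), and a resolution of 0.5 gave 7 sub-clusters. A sub-cluster was named after a marker list only.

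Named genes are the markers and gate genes, Chd1 and Spop, the called genes of at least 20 CPM with up to 10 per direction between genotypes, up to 15 per direction of at least 100 CPM between populations, the leading interaction genes and leading genes of each list. The called genes Cacna1a, Meg3, G0s2, Gm26740, Isg15 and Saa3 and the genes that set apart the cells of high Retnla were added after their values were seen. Gene positions are from the GENCODE M21 annotation (GRCm38), and promoter windows are from RefSeq (GRCm38.p6). Alternatives were each mouse left out, another normalization, no filter on low counts and other gates and cell limits. Results of some genes are not reported here.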

Additional observations from a re-analysis of the deposited data

Results flagged for a closer look

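For the genes given here the PCSp effect in gate-positive phagocytes differed from that in C1q macrophages by the interaction test of edgeR. The difference of the effects, on the log2 scale, was -1.91 for Rsad2 and -3.40 for Cmpk2, whose levels are given above. Plac8 differed by -3.18, with 216 and 407 CPM in gate-positive phagocytes of the PCSp mice, against 719 and 379 CPM in those of the PSp mice. In C1q macrophages Plac8 stood at 21.6 and 141 CPM in the PCSp mice, against 19.2 and 7.25 CPM in the PSp mice, so PCSp mouse 2 alone held the high value. Dnase1l3, a secreted nuclease, differed by -2.77, with 14.8 and 8.58 CPM in gate-positive phagocytes of the PCSp mice, against 59.6 and 18.2 CPM in those of the PSp mice. In C1q macrophages Dnase1l3 stood at 63.6 and 49.7 CPM in the PCSp mice, against 33.9 and 25.7 CPM in the PSp mice. Sparcl1, a matrix glycoprotein, differed by 4.69, with 52.8 and 29.5 CPM in gate-positive phagocytes of the PCSp mice, against 8.02 and 0 CPM in those of the PSp mice. In C1q macrophages Sparcl1 stood at 27.3 and 22.4 CPM in the PCSp mice, against 109 and 44.6 CPM in the PSp mice. Sparcl1 averaged 1404 CPM in endothelial cells and 862 CPM in fibroblasts. Endothelial markers summed to 53.3 and 26.2 CPM in C1q macrophages of the PCSp mice, against 214 and 126 CPM in the PSp mice. In gate-positive phagocytes they summed to 29.6 and 16.2 CPM, against 26.4 and 12.1 CPM. The part of endothelial or fibroblast RNA in the Sparcl1 values was not tested. Saa3, a serum amyloid gene, differed by -6.94, with 1.06 and 2.86 CPM in gate-positive phagocytes of the PCSp mice, against 5.73 and 36.4 CPM in those of the PSp mice. In C1q macrophages Saa3 stood at 9.52 and 41.7 CPM in the PCSp mice, against 0 and 4.46 CPM in the PSp mice. Plac8 and Dnase1l3 did not pass in DESeq2, where the adjusted p of each was 0.624.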

How the results depend on the processing

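The count of genes called between genotypes, 24, fell to 1 with 40 cells drawn per mouse, to 14 with a gate without Cd209a, to 14 without high-scoring doublets and to 13 without the cells that hold fibroblast transcripts. It came to 134 with no filter on low counts and to 90 in the cells with few C1q UMIs alone, a fit that left out PSp mouse 2 with its 6 such cells. Leaving out each mouse in turn gave 69 to 164 calls, with the lone mouse of a group assumed to vary like the others. The 2273 calls against C1q macrophages became 1370 with DESeq2 and 1446 to 2088 with a mouse left out. The 7 interaction calls became 4 with a mitochondrial limit of 10%, 4 without cells holding S100a8 and S100a9, 83 with no filter on low counts, 13 without the cells that hold fibroblast transcripts, 11 without cells of at least 10 Retnla UMIs and 0 to 88 with a mouse left out. The settings on fibroblast transcripts and Retnla were chosen after seeing the data. Other settings moved no count of calls by over 1.5 times. Among named genes between genotypes, signs turned for genes that were never called. Chd1 came to -0.296 and Mrc1 to -0.0957 in the cells with few C1q UMIs. Spop came to -0.107 with equal numbers of cells, -0.0319 with few C1q UMIs, -0.208 without PCSp mouse 1 (0.254 at most with a mouse left out), -0.00115 without cells holding S100a8 and S100a9 and -0.0234 without cells of high Retnla. The cause was not tested. Over all settings 295 values of named genes kept their direction and side of the threshold, 84 lost the call, 6 gained it and 7 reversed. The difference in the share of kept cells ranged from 0.417 to 1.37 percentage points with a mouse left out. No paired analysis was possible because the labels give the groups no shared replicate numbers, and the mice are numbered here in accession order. With 2 mice per group and 40 cells in PSp mouse 2, small changes are beyond the reach of these data.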
